A study of Oryza coarctata with 5 samples.

Results

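The transcripts described here are the 200 of *Oryza coarctata* (named *Porteresia* in the series) whose levels under submergence stood highest above those of plants not submerged, in fresh water and in salt water alike, out of 152367 assembled transcripts. They were selected on measured values, from transcripts with a level above 0 in all 5 libraries and a level of at least 5 in both submerged libraries, a condition that 21776 transcripts met (called eligible below). Each eligible transcript was scored by the smaller of its log2 ratios for submergence in water over the water control and for submergence in 450 mM NaCl over 450 mM NaCl, after adding 0.5 to every value, and the 200 highest scores were kept. Levels are RPKM, the reads of a transcript per kilobase of its length, scaled to the reads of the library. The library from plants in 700 mM NaCl took no part in the score.

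RNA was measured by sequencing in mature plants, 1 library for each of 5 treatments. These were water (the control), NaCl at 450 mM, NaCl at 700 mM, submergence in water (fresh water below), and submergence in a 450 mM NaCl solution (salt water below). The plants were taken from nature, and neither the organs sampled nor the time under treatment nor the number of plants behind a library is given in the sources used here. With 1 library a treatment there is no replicate error, no test between treatments was possible and no p-value is given, so plant-to-plant variation and any other difference between libraries cannot be told apart from the treatments. The words higher and lower below mean 2-fold or more on the scale of log2(RPKM + 0.5) unless a size is given, and this scale understates differences of transcripts at low levels.

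*Oryza coarctata* is a salt-tolerant relative of cultivated rice that lives on tidal flats, where salt water covers it regularly. Water around a leaf slows the exchange of gases, so a submerged plant runs short of oxygen and builds up ethylene. In flooded plants generally, group VII ethylene response factors switch on genes of sugar breakdown and of fermentation, which yield energy without oxygen, and in rice members of the same group govern whether the shoot elongates or rests. Salt acts on the plant differently, by making water harder to take up and by loading cells with sodium. The files carry assembly numbers without gene names, so no member could be given a role in these pathways, and the lists of fermentation, ethylene, salt transport and photosynthesis genes could not be applied. For the same reason the labelled source, the mature plant, could not be checked against marker genes.

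The libraries held between 56638113 and 78997383 reads, as solved from the steps between low RPKM values. The members took up 0.232% of all summed RPKM in the control, 0.129% at 450 mM NaCl, 0.107% at 700 mM NaCl, 1.12% under fresh water and 0.586% under salt water. They were shorter than the eligible transcripts, with a median length of 572 nt (quartiles 309 and 1317 nt) against 1051 nt (418 and 1876 nt). Members under 300 nt numbered 47 (23.5%), against 15.2% of the eligible transcripts. The median member rested on 180 reads in the control, 110 at 450 mM NaCl, 82 at 700 mM NaCl, 1213 under fresh water and 643 under salt water. For the median eligible transcript these were 754, 738, 655, 1179 and 1094 reads. Under 20 reads stood behind 10 members in the control, 28 at 450 mM NaCl and 24 at 700 mM NaCl, where 1 member had 1 read. No member had the same 5 values as another transcript, though near-identical gene copies in this polyploid plant can share reads, and several members can belong to 1 gene.

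The choice of members fixed that all 200 stood higher in both submergence contrasts, against 10.8% of eligible transcripts without salt, 8.46% with salt and 6.45% in both, and nothing is read from these counts. The scores ran from 4.79 at rank 1 through 2.94 at rank 10, 2.18 at rank 50 and 1.93 at rank 100 to 1.70 at rank 200. As a fold of RPKM + 0.5, the score at rank 200 is 3.24-fold. The last transcripts inside the limit, at ranks 199 and 200, scored 1.70013 and 1.69723, and the first outside, at ranks 201 and 202, scored 1.69431 and 1.69124, so the limit falls in a smooth series. The smaller ratio was the one without salt for 73 members and the one with salt for 127. In all 200 members the exact 95% interval of the read ratio, scaled to the read totals, lay above 2-fold in both contrasts. Such intervals cover counting error only, and reads are not independent molecules. They also come from the reads that chose the members, so this outcome was nearly fixed by the choice and nothing is read from it.

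Median RPKM over the members was 4.51 in the control (lowest 0.106, highest 69.6), 2.26 at 450 mM NaCl (0.140 to 33.4), 2.31 at 700 mM NaCl (0.0309 to 29.6), 24.4 under fresh water (5.73 to 309) and 11.6 under salt water (5.10 to 165). The members thus ran from low to moderately high levels in every library, and the submerged libraries overlap the others when transcripts are pooled. Within a transcript they hardly did. In 199 members all 3 libraries from plants not submerged lay below both submerged libraries, against 46.6% of eligible transcripts, a pattern that the score sets in part. The exception was Pc_TC086237, named after its values were seen, with 7.18 RPKM in the control and 6.92 under salt water. Submergence in water was the highest of the 5 libraries for 191 members, against 45.1% of eligible transcripts, and submergence in salt for the other 9, against 17.3%. Both libraries entered the score, so these counts are a description.

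**Figure D1:**
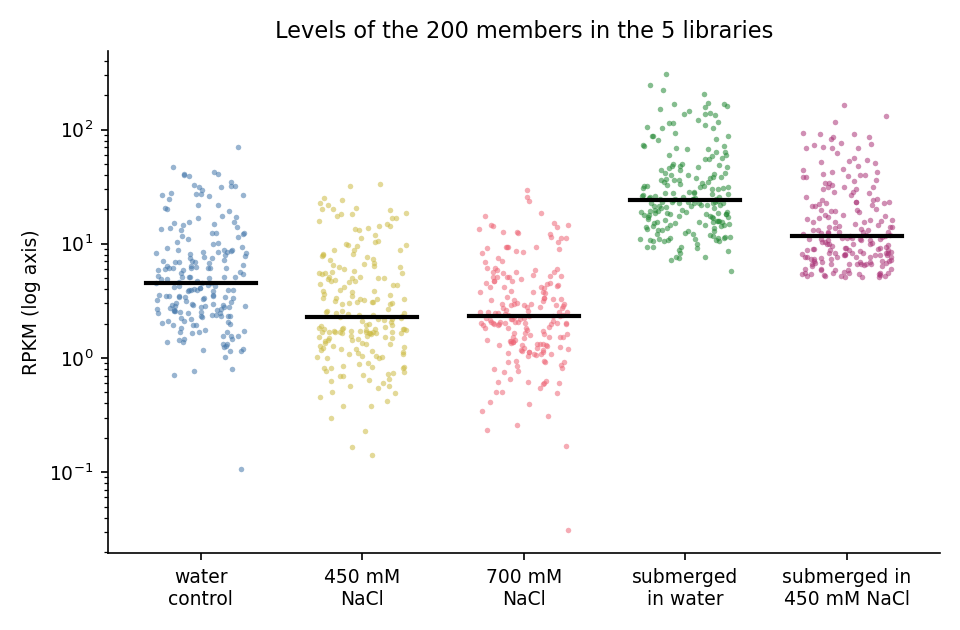
RPKM (log axis) of the 200 members in each of the 5 libraries, 1 point a transcript, with a bar at the median. The medians are 4.51, 2.26, 2.31, 24.4 and 11.6 from left to right. The salt library thus lies below its counterpart without salt both without submergence and with it.

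The highest score belonged to Pc_TC046817 (240 nt), which had 2.28 RPKM in the control, 0.906 at 450 mM NaCl, 0.927 at 700 mM NaCl, 102 under fresh water and 38.3 under salt water. It was low in all plants not submerged. Both salt doses had 13 reads, with a ratio between them of 1.02 (interval 0.437 to 2.40). Next came Pc_TC060489 (201 nt), at 1.14, 0.166, 0.170, 30.6 and 9.17 RPKM in the same order. Only 13, 2 and 2 reads stood behind its first 3 values, and its ratio of 55.1 for submergence in salt carries an interval from 15.0 to 460.

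The members at the highest levels under water, judged by their lower submerged library, had many reads and differed from one another in their levels in salt. Pc_TC012064 (2161 nt) had 32.2 RPKM in the control, 17.0 at 450 mM NaCl, 7.02 at 700 mM NaCl, 133 under fresh water and 165 under salt water. Salt went with lower levels without submergence and a higher level with it. Pc_TC012064 was the 1 member whose submergence ratio was larger with salt than without by 2-fold or more. Pc_TC021021 (980 nt) had 41.0, 33.4, 29.6, 309 and 131 RPKM in the same order. Its levels without submergence were close to each other, and salt water went with a level 2.35-fold lower than fresh water (interval 2.30 to 2.41).

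Levels at 700 mM NaCl, in the library that the score did not use, were mostly below the control. Of the 200 members, 84 were lower at 700 mM NaCl than in the control, against 3.59% of eligible transcripts, and 2 were higher, against 0.468%. Over the members the median log2 ratio was −0.83 (quartiles −1.40 and −0.38), a level 1.78-fold below the control, where the median of eligible transcripts was −0.19. At any size, 177 members stood below the control, against 70.7% of eligible transcripts, and 16 were lower by 4-fold or more, against 0.271%. The control library is shared with the score, which favours low control values, and a low control value raises this ratio. The interval of the read ratio lay below 1 for 152 members, against 53.0% of eligible transcripts, and above 1 for 7, against 17.8%. Median-of-ratios scaling moved the median of the eligible transcripts to −0.05 and that of the same members to −0.71, so the gap between them stayed near its size. With this scaling 74 members were lower, against 2.36% of eligible transcripts, and 2 higher, against 0.840%.

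Placed among all 5 libraries, 700 mM NaCl gave the lowest level for 113 members (48.5% of eligible transcripts), the second lowest for 65 (16.2%) and the third lowest for 22 (11.0%). The 22 are 11% of the members, the same share as among eligible transcripts, and nothing is read from their number. The level at 700 mM NaCl lay below both submerged libraries in all 200, against 62.4% of eligible transcripts. The score takes transcripts whose submerged levels stand above their counterparts in the control and at 450 mM NaCl. A level at 700 mM NaCl near those counterparts then lies below both submerged libraries. The choice of members thus sets all these places in part. The shares of eligible transcripts are not a like comparison, and nothing is read from the differences. The members at the third place were above both the control and 450 mM NaCl, and none reached either submerged level.

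On the log2(RPKM + 0.5) scale the lowest ratio of 700 mM NaCl to control was that of Pc_TC082808 (316 nt), which had 19.2 RPKM in the control, 4.76 at 450 mM NaCl, 2.22 at 700 mM NaCl, 73.7 under fresh water and 22.1 under salt water. It was 8.66-fold lower at 700 mM NaCl than in the control (interval 6.25 to 12.3). Each step of salt went with less of this transcript, and under salt water it stood near the level of the control. A like order was seen in the next lowest, Pc_TC123284 (534 nt), at 4.50, 0.689, 0.256, 22.6 and 5.10 RPKM. It was 17.5-fold lower at 700 mM NaCl than in the control (8.65 to 41.4, from 8 and 136 reads), and it also had the lowest ratio of submergence in salt to submergence in water of all members, 4.43-fold lower (3.80 to 5.18), and on the same scale the second lowest ratio of 450 mM NaCl to control, 6.53-fold lower by RPKM (4.14 to 10.8).

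The 2 members that were higher at 700 mM NaCl than in the control were low in the control. Pc_TC036242 (682 nt) had 1.14 RPKM in the control, 2.67 at 450 mM NaCl, 3.76 at 700 mM NaCl, 15.4 under fresh water and 11.8 under salt water. Both salt doses and both kinds of submergence were above the control, with submergence well above salt. Pc_TC061127 (835 nt) had 0.106, 0.140, 0.758, 18.3 and 7.09 RPKM. It had 5 reads in the control and 37 at 700 mM NaCl, a ratio of 7.17 with an interval from 2.81 to 23.4, and its level at 700 mM NaCl was still far under both submerged levels.

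**Figure D2:**
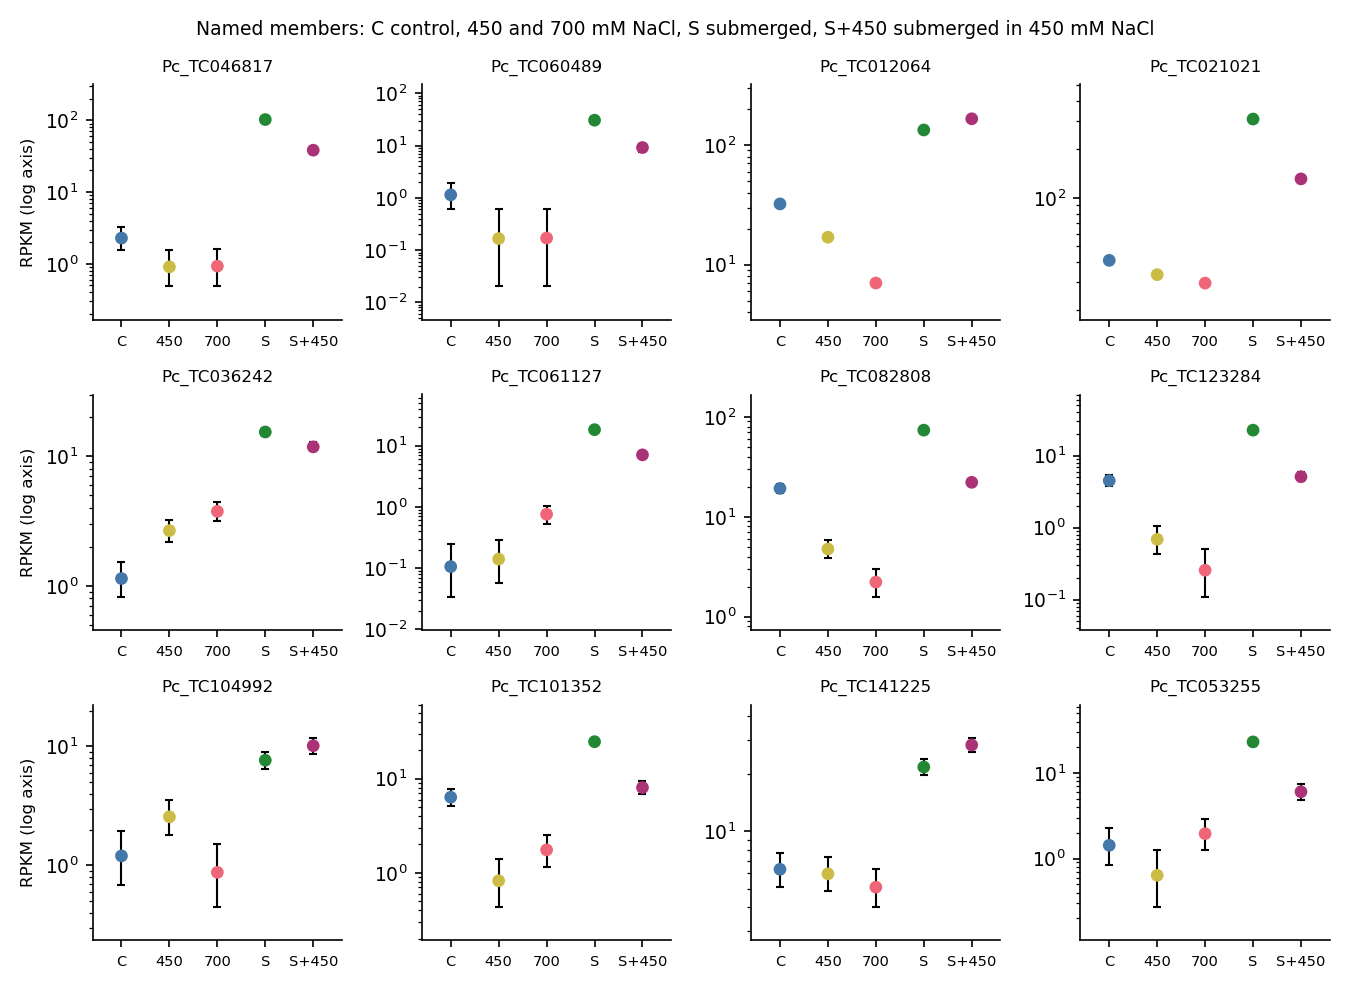
RPKM (log axis, scaled per panel) of the 12 members named by rule in the 5 libraries, with exact 95% Poisson intervals for the reads. Pc_TC082808 and Pc_TC123284 descend from control over 450 to 700 mM NaCl, while Pc_TC036242 ascends over the same libraries.

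At the lower salt dose most members also stood below the control. At 450 mM NaCl, 49 members were lower than in the control, against 0.974% of eligible transcripts, and none was higher, against 0.257%. Its median log2 ratio to the control over the members was −0.77 (quartiles −0.995 and −0.524), 1.71-fold below the control, beside −0.07 over eligible transcripts, and 192 members stood below the control at any size, against 60.4% of eligible transcripts. The count past 2-fold moves with the added value and the floor. Without the added 0.5 the same members gave 77 lower and 2 higher, against 1.54% and 0.317%. With the 200 chosen anew, 31 were lower when 1 was added in its place and 27 with a floor of RPKM 10. Shares of eligible transcripts are not given for these choices. Both libraries entered the score, which favours low values in each. The lowest ratio was that of Pc_TC101352 (264 nt), at 6.35 RPKM in the control, 0.823 at 450 mM NaCl, 1.75 at 700 mM NaCl, 24.7 under fresh water and 8.04 under salt water. It was 7.72-fold lower at 450 mM NaCl than in the control (4.30 to 15.0), more than at the higher dose. Next to Pc_TC036242, the highest ratio was that of Pc_TC104992 (235 nt), at 1.20, 2.56, 0.874, 7.65 and 10.1 RPKM. It rests on 16 reads in the control, 36 at 450 mM NaCl and 12 at 700 mM NaCl. At the lower dose it was above the control (interval 1.15 to 4.11). At the higher one the interval of its ratio, 0.314 to 1.64, included 1.

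The doses were also set directly against each other. At 700 mM NaCl 13 members were lower than at 450 mM NaCl, against 0.964% of eligible transcripts, and 3 were higher, against 0.358%. The median log2 ratio was −0.16 for the members and −0.11 for the eligible transcripts. These counts depend on the added value: without it the same members gave 28 lower and 16 higher, against 1.56% and 0.514%. With 0.1 added and the 200 chosen anew 23 were lower and 13 higher, and no share of eligible transcripts is given for this choice. Median-of-ratios scaling, for the same members, gave 12 lower and 6 higher, against 0.845% and 0.436% of eligible transcripts. The 450 mM library entered the score, which favours low values there. Members also rested on fewer reads than eligible transcripts, with medians of 110 against 738 at 450 mM NaCl and 82 against 655 at 700 mM NaCl. The part of depth in these counts was not tested.

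Under water, salt went with lower levels as well. Under salt water, 90 members were lower than under fresh water, against 1.86% of eligible transcripts, and none was higher, against 2.98%. Over the members its median log2 ratio was −0.97 (quartiles −1.24 and −0.70), 1.96-fold lower, where the eligible transcripts had a median of −0.03. Both libraries entered the score, so this is a description. It is also tied by arithmetic to the ratio of 450 mM NaCl to control, because the difference between these salt ratios equals the difference between the submergence ratios. Submergence gave a ratio at least 2-fold larger without salt than with it for 9 members, against 0.689% of eligible transcripts, and at least 2-fold larger with salt for 1 member, against 1.77%. The median of the difference, with salt minus without, was −0.11 on the log2 scale. A score that takes the smaller of 2 ratios favours transcripts whose ratios are alike, so nothing is read from this difference: with the mean of both ratios as score the counts were 26 and 2, and without the added 0.5, over the same members, 7 and 7.

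Among members at the ends of this comparison, Pc_TC053255 (210 nt) had 1.43 RPKM in the control, 0.637 at 450 mM NaCl, 1.96 at 700 mM NaCl, 23.1 under fresh water and 6.04 under salt water. Its level in submerged salt water was 3.83-fold below that in submerged fresh water (3.05 to 4.85). At 700 mM NaCl it had 24 reads and in the control 17, and the interval of that ratio, 0.705 to 2.71, included 1. At the other end, Pc_TC141225 (266 nt) had 6.31, 5.97, 5.08, 21.7 and 28.3 RPKM. Its 3 levels without submergence were close together, and salt water was 1.31-fold above fresh water (1.15 to 1.48). Pc_TC104992, described above, had a ratio of 1.32 (1.05 to 1.66).

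Even with these lower levels, the members stood above the plain water control in submerged salt water. There 155 were higher than in the control, against 3.23% of eligible transcripts, and none was lower, against 1.69%. The median log2 ratio was 1.28 (quartiles 1.04 and 1.67). The contrast joins a control that the score favours low with a submerged library that it favours high.

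The ratio of 700 mM NaCl to control and that of submerged salt water to submerged fresh water have no library in common. The control and both submerged libraries entered the score, however. Members lower in both numbered 49, against 0.776% of eligible transcripts. They were 58.3% of the members lower at 700 mM NaCl and 54.4% of those lower in salt under water, where the same shares among eligible transcripts were 21.6% and 41.6%. Of all members, though, 45% were lower in salt under water and 42% at 700 mM NaCl. Among eligible transcripts these were 1.86% and 3.59%. A closer tie between the ratios in the members can therefore not be read from the overlap. Over all 21776 eligible transcripts the ratios had a Pearson r of 0.58, and over the 200 members r was 0.24. Why the values differ was not tested. These correlations run across transcripts of the same 4 libraries and describe them only.

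**Figure D3:**
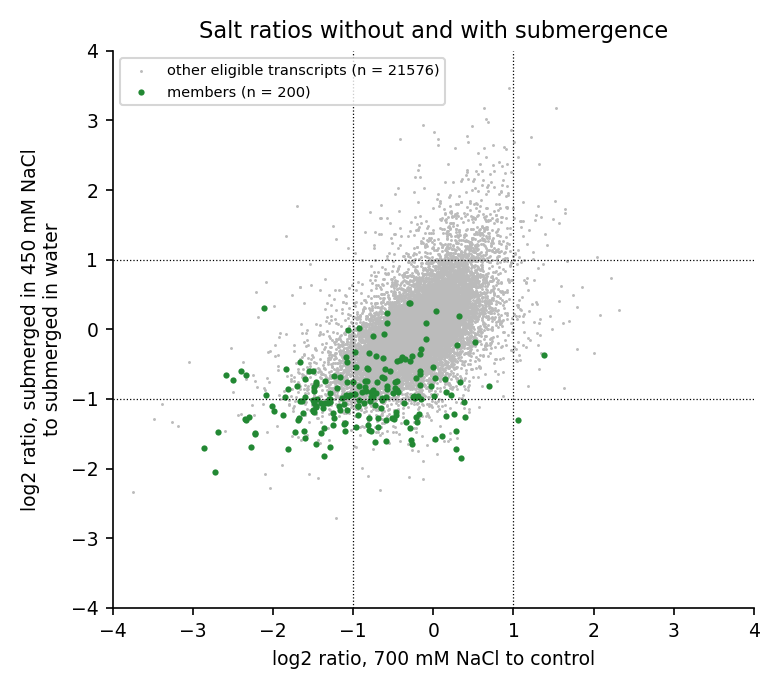
Log2 ratio of 700 mM NaCl to control (horizontal) and of salt-water to fresh-water submergence (vertical) for the 200 members (green) and the 21576 other eligible transcripts (grey), with dotted lines at 2-fold; 11 transcripts lie beyond the axes. The members gather at the lower left, with 49 of them lower by 2-fold or more on both axes.

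Split by these 2 comparisons, the members fell into 4 groups, which the ratios themselves define. The 49 lower in both had median RPKM of 7.09 in the control, 3.02 at 450 mM NaCl, 1.83 at 700 mM NaCl, 32.1 under fresh water and 14.1 under salt water. The 35 lower at 700 mM NaCl but not in salt under water had the highest medians in 4 of the libraries, with 9.22, 5.62, 2.41, 35.0 and 23.1 RPKM. The 41 lower in salt under water but not at 700 mM NaCl had 2.74, 1.27, 2.07, 25.1 and 9.18 RPKM. The remaining 75 had 3.41, 1.95, 2.54, 18.0 and 10.3 RPKM. Depth went with these groups: the median number of control reads was 359, 286, 66 and 147 in the same order, and its part in the split was not tested.

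The difference at 700 mM NaCl was larger in the members at the highest levels under fresh water, a library that entered the score. The members were divided into 3 like-sized groups by their level under fresh water, at 18.1 and 35.0 RPKM. Lower at 700 mM NaCl than in the control were 17 of the 67 lowest, 25 of the 66 in the middle and 42 of the 67 highest. Among all eligible transcripts the share was 3.59%. It is not given for eligible transcripts at the same levels, so whether those show the same trend is not known here. The added 0.5 shrinks ratios of low transcripts. Without it, the numbers of members at no more than 0.5 times the control were 26, 31 and 43 (100 in all, against 4.85% of eligible transcripts). The median log2 ratios of RPKM were then −0.86, −0.86 and −1.32. By these medians the lowest and middle groups were alike, and only the highest stood apart. Length showed less of a trend, with 19 of 47 members under 300 nt, 37 of 92 from 300 nt to under 1000 nt and 28 of 61 of 1000 nt or more lower at 700 mM NaCl. Without the added 0.5 these numbers were 26, 44 and 30, so the longest members no longer had the largest share. Shares of eligible transcripts by length are not given.

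The salt ratios were also taken in bands of rank of the score. The control, 450 mM NaCl and both submerged libraries entered the score that makes the bands, so the medians describe the bands and support nothing. For 450 mM NaCl over control the median log2 ratio was −0.88 in ranks 1 to 50, −0.65 in ranks 151 to 200, −0.59 in ranks 201 to 400, −0.41 in ranks 801 to 1600 and −0.03 from rank 3201 on. For submerged salt water over submerged fresh water the medians of the same ranks were −1.22, −0.85, −0.79, −0.57 and 0.03. The ratio of 700 mM NaCl to control shares only the control with the score, and its medians were not in order of rank in the top bands. They were −0.61 in ranks 1 to 50, −0.83 in ranks 51 to 100, −1.08 in ranks 101 to 150 and −0.84 in ranks 151 to 200. Outside the members they were −0.91 in ranks 201 to 400, −0.69 in ranks 801 to 1600 and −0.14 from rank 3201 on.

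**Figure D4:**
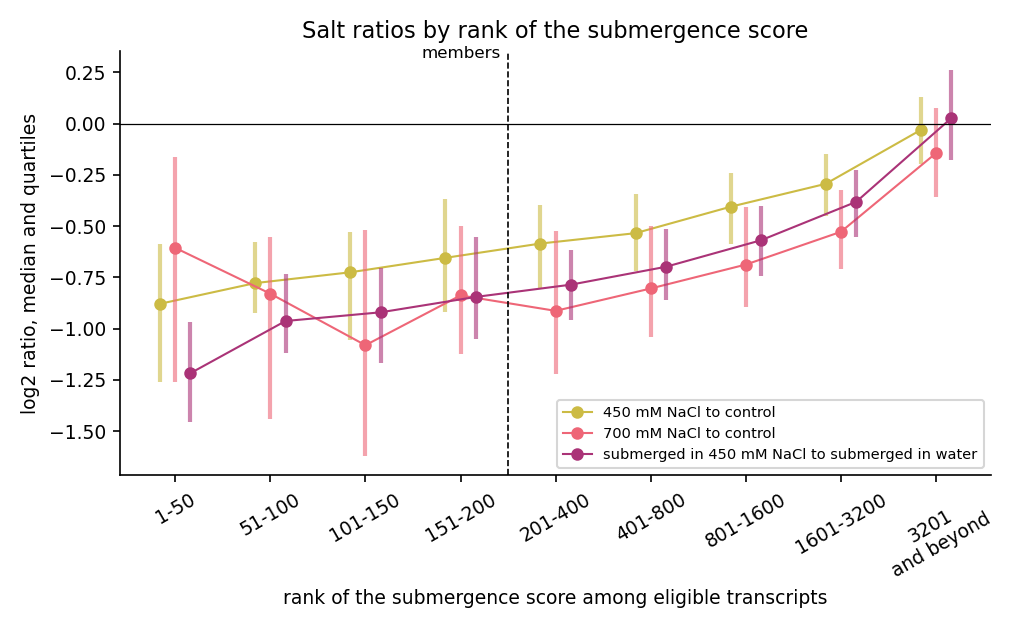
Median log2 ratio (points) and quartiles (bars) of 3 salt comparisons in bands of rank of the submergence score among eligible transcripts, with members left of the dashed line. All 3 medians are below 0 through rank 3200 and closer to 0 beyond it.

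The reverse rule gave a list for comparison: the 200 transcripts standing lowest under submergence relative to plants not submerged, without and with salt, among those above 0 in every library and at 5 RPKM or more in the control and at 450 mM NaCl. Their median RPKM was 16.4 in the control, 19.9 at 450 mM NaCl, 24.7 at 700 mM NaCl, 0.639 under fresh water and 2.21 under salt water. At 700 mM NaCl over control the log2 ratio had a median of 0.57 (quartiles 0.33 and 0.83) in this list and −0.83 (−1.40 and −0.38) in the members, so the quartile ranges lay on opposite sides of 0 and did not overlap. No test of the difference was possible with 1 library a treatment. The reverse score favours high control values, which lower that ratio.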

How the data were processed

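RNA-seq tables of 5 libraries, 1 per treatment, were used. The deposited values are RPKM per transcript. Per the series text, the authors cleaned reads with NGS QC Toolkit before mapping them to the *Porteresia* transcripts. Not given in the sources used here are the aligner, versions, the assembly and the treatment of reads matching several transcripts. The authors' DESeq results were not used.

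RPKM was used as deposited for all levels and ratios. Read totals, lengths (at least 200 nt) and whole reads were solved from the RPKM steps, within 0.01 of a whole read, for 152263 transcripts. These reads sum to about 99.1% of each read total. For some transcripts the true reads may be a multiple of the solution. Reads and lengths served only to describe depth and length and for exact 95% intervals (Poisson, and Clopper-Pearson for ratios). The choice of members and the read recovery were tested on simulated data. Python 3.11.15, numpy 2.4.6, pandas 2.3.3 and scipy 1.17.1 were used.

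The members, lists and limits were chosen with earlier results of these data known. Members were named by rule: the 2 highest scores, the 2 highest levels in the lower submerged library, and the 2 highest and 2 lowest ratios of 700 mM NaCl to control, 450 mM NaCl to control, and submergence in salt to submergence in water. Alternatives were other pseudocounts, floors, scalings, score and fold limits, and a limit to calls beyond counting error.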

Additional observations from a re-analysis of the deposited data

Results flagged for a closer look

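At any size, the log2 ratios for 450 mM NaCl without and with submergence had opposite signs for a few members. This difference was not tested for want of replicates, and nothing is read from the counts. Above the control at 450 mM NaCl but lower in salt than in fresh water under submergence were 4 members (Pc_TC061127, Pc_TC036242, Pc_TC146828 and Pc_TC122110), of which Pc_TC036242 had both read-ratio intervals clear of 1. Below the control at 450 mM NaCl but higher in salt than in fresh water under submergence were 5 members (Pc_TC103901, Pc_TC012064, Pc_TC013131, Pc_TC033744 and Pc_TC141225), of which Pc_TC012064 had both intervals clear of 1. For Pc_TC012064 the levels were 32.2 RPKM in the control, 17.0 at 450 mM NaCl, 133 under fresh water and 165 under salt water (450 mM NaCl). The others listed had an interval that included 1 in at least 1 of the comparisons. No member had opposite differences of 2-fold or more. The members other than Pc_TC061127, Pc_TC036242, Pc_TC012064 and Pc_TC141225 were named after their values were seen.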

How the results depend on the processing

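No direction reversed under any alternative run. However, the excess of larger submergence ratios without salt over those with salt (9 members against 1) was lost in some. Adding 0.1, with the 200 chosen anew, left 6 members on each side. Adding nothing, over the same members, left 7 on each side. The members lower at 700 mM NaCl than in the control numbered 69 to 100 and those lower in salt under water 66 to 109 in all alternatives other than the fold limits. With a limit of 1.5-fold, lower members numbered 132 at 700 mM NaCl, 139 at 450 mM NaCl, 163 in salt under water and 47 at 700 against 450 mM NaCl, higher members 2 at 450 mM NaCl and 33 at 700 against 450 mM NaCl, and the submergence ratio was larger without salt for 31 and with salt for 6. With a limit of 4-fold these were 16, 3, 1 and 1 lower, 0 higher at 700 mM NaCl and at 700 against 450 mM NaCl, and 0 larger ratios either way. Of the 21776 eligible transcripts, 59, 8, 11 and 27 were lower by 4-fold or more, in the same order. A floor of RPKM 1 and no floor gave the same values: 128 members shared with the list, a median log2 ratio at 700 mM NaCl of −0.69, 5 higher and 8 lower at 700 than at 450 mM NaCl, and 15 with a larger ratio without salt. A floor of RPKM 10 gave 115 shared members, a median of −0.98, 1 higher at 700 mM NaCl and 27 lower at 450 mM NaCl. A pseudocount of 0.1 gave 2 higher at 450 mM NaCl, 13 higher and 23 lower at 700 than at 450 mM NaCl, and 6 with a larger ratio with salt. A pseudocount of 1 gave 1 higher at 700 mM NaCl and 31 lower at 450 mM NaCl. Median-of-ratios scaling gave a median of −0.71, 1 higher at 450 mM NaCl and 6 higher at 700 than at 450 mM NaCl. The mean of both ratios as score gave a median of −0.70, and 26 and 2 members with a larger ratio without and with salt. Among the 162 members with at least 20 reads in every library, a limit added after seeing the data, 1 was higher at 700 mM NaCl and 4 had a larger ratio without salt. Without a pseudocount, an alternative also added then, the same members gave a median of −1.0, 2 higher and 77 lower at 450 mM NaCl, 16 higher and 28 lower at 700 than at 450 mM NaCl, and 7 with a larger ratio with salt. The cause of these shifts was not tested. Shares of eligible transcripts are not given for the 1.5-fold limit or for the other pseudocounts, floors and score. Those counts show only how the results move with the choice. No paired analysis was possible because each treatment has 1 library and no replicate numbers. Depth was under 20 reads for 10 members in the control, 28 at 450 mM NaCl and 24 at 700 mM NaCl.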
